A study of Mus musculus with 6 samples.

Results

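AU-rich elements are stretches of adenosine and uridine in the 3′ untranslated regions (3′ UTRs) of short-lived mRNAs, and the 8 proteins described here bind them. The genes are Zfp36, Zfp36l1, Zfp36l2, Hnrnpd, Elavl1, Khsrp, Tia1 and Tial1, chosen by name from 23896 genes with a symbol, with the RefSeq transcript of the highest mean count standing for each. All 8 were among the 12381 genes that passed the filter on low counts. The libraries are poly(A) mRNA-seq of MEL cells, a mouse erythroleukemia line held at the proerythroblast stage, which matures along the erythroid path when DMSO is added to the medium. Cells were collected in log-phase growth before DMSO (day 0) and after 2 and 4 days in 2% DMSO, with 2 biological replicates per day and 6 libraries in all, and no group carried a genetic change beyond those of the line. MEL cells are a transformed line in culture and stand for part of erythroid maturation. DMSO and time in culture cannot be told apart, because no untreated culture was sampled at days 2 and 4.

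An mRNA that carries an AU-rich element is shortened, stored or protected according to which protein sits on it. Zfp36 (tristetraprolin), Zfp36l1 and Zfp36l2 are zinc finger proteins that recruit the CCR4-NOT deadenylase, and Hnrnpd (AUF1) and Khsrp (KSRP) also promote decay. Elavl1 (HuR) protects bound mRNAs, and Tia1 and Tial1 (TIAR) repress their translation and gather in stress granules. In blood cells the Zfp36 proteins are known for limiting cytokine mRNAs, and Zfp36l2 is known for a role in early erythroid progenitors.

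Each library held between 35294930 and 53899476 counts on transcripts, and entries on no feature made up 50.5% to 58.4% of all listed counts. A read can be counted for more than 1 transcript of a gene, so these are not numbers or shares of reads. The erythroid markers with a count row, 7 of 8, with Gata1, Klf1 and Alas2 among them, summed to 724 to 845 counts per 1000000 library counts (CPM, scaled by TMM) before DMSO, then 998 to 1093 CPM after 2 days and 2393 to 2678 CPM after 4. Over 4 days 5 of the 7 were called higher and 2 lower, with Alas2, an enzyme of heme synthesis, at a mean of 76.4 CPM at day 0 and 1417 CPM at day 4, and the regulators Klf1 (251 and 172 CPM) and Nfe2 (76.5 and 53.4 CPM) the ones that fell. The 9 markers of other blood and connective tissue cells summed to 47.1 to 60.5 CPM before DMSO, then 14.9 to 15.6 CPM after 2 days and 10.7 to 12.6 CPM after 4. Cd3e was at 0 in both libraries of day 0 and Itgam in both of day 4. Most of that sum was Pf4, a platelet chemokine, at a mean of 50.0 CPM at day 0 and 9.56 CPM at day 4, and the part of this fall in the results below was not tested. Fewer cells of a type and less RNA per cell cannot be told apart in bulk libraries. The 2 day 0 libraries were less alike than those of the later days. The median absolute difference between replicates over all genes was 0.20 on the log2 scale at day 0, 0.11 at day 2 and 0.13 at day 4.

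The members' own mRNAs carry AU-rich motifs, and a 30-base window of the 3′ UTR is shown for 6 of them. They include the 4 members with the nonamer TTATTTATT, the core of the strongest class of elements. Tia1 and Tial1, which have the shorter heptamer TATTTAT, are shown too. Each window is the one with the most nonamers, with ties settled by heptamers, then pentamers, then A and T bases. The windows are 5′ to 3′ on the transcript strand of GRCm38, with each ATTTA pentamer in capitals. The heptamer lies inside the nonamer and the pentamer inside both, so the counts overlap. The opposite strand was not searched, because the motifs act in RNA.
Zfp36, chr7:28376956-28376985, minus strand: tttATTTAtgacgactttATTTAttgtatt
Zfp36l1, chr12:80108170-80108199, minus strand: aaaaaactgttggattATTTAttttagaaa
Zfp36l2, chr17:84184923-84184952, minus strand: aatatgaaaaactATTTAacttATTTAtta
Elavl1, chr8:4285777-4285806, minus strand: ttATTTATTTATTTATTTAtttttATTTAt
Tia1, chr6:86430474-86430503, plus strand: aatgtATTTATTTAaaagattcattttttt
Tial1, chr7:128442421-128442450, minus strand: aaaatgaaaatATTTAttttaaaaattgaa
All 6 windows lie in the last exon, in the 3′ UTR. Elavl1 held 8 nonamers in a 3′ UTR of 4218 bases, and Zfp36, Zfp36l1 and Zfp36l2 held 1 each in 774, 1835 and 1822 bases. Of the 11381 tested genes with a 3′ UTR in the reference, 772 (6.78%) held at least 1 nonamer and 4 (0.0351%) held 8 or more. Hnrnpd, Khsrp, Tia1 and Tial1 had none. The Elavl1 window begins 3794 bases after the stop codon, and the counts per transcript do not show whether that end of the 3′ UTR was present in these cells.

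Over 4 days, Zfp36, Tia1 and Tial1 mRNA rose, Hnrnpd, Elavl1 and Khsrp mRNA fell, and Zfp36l1 and Zfp36l2 did not pass the test. For day 2 against day 0, 3 of the 8 were called higher and 3 lower at an adjusted p below 0.05 (edgeR's quasi-likelihood test, Benjamini-Hochberg over 18351 transcripts). Across all tested genes 62.5% were called in that comparison, 31.0% higher and 31.5% lower, and a count of 6 of 8 is near that background. For day 4 against day 2, 2 were called higher and 1 lower, against 30.3% of all genes (14% higher and 16.2% lower). For day 4 against day 0, 3 were called higher and 3 lower, against 71.8% of all genes (35.5% higher and 36.4% lower). The median log2 fold change of the 8 was -0.16, 0.25 and 0.21 in the 3 comparisons, beside 0.0093, -0.0046 and -0.017 over all genes. The median absolute change of the 8 was 0.39, 0.32 and 0.49, beside 0.53, 0.28 and 0.71 over all genes.

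**Figure D1:**
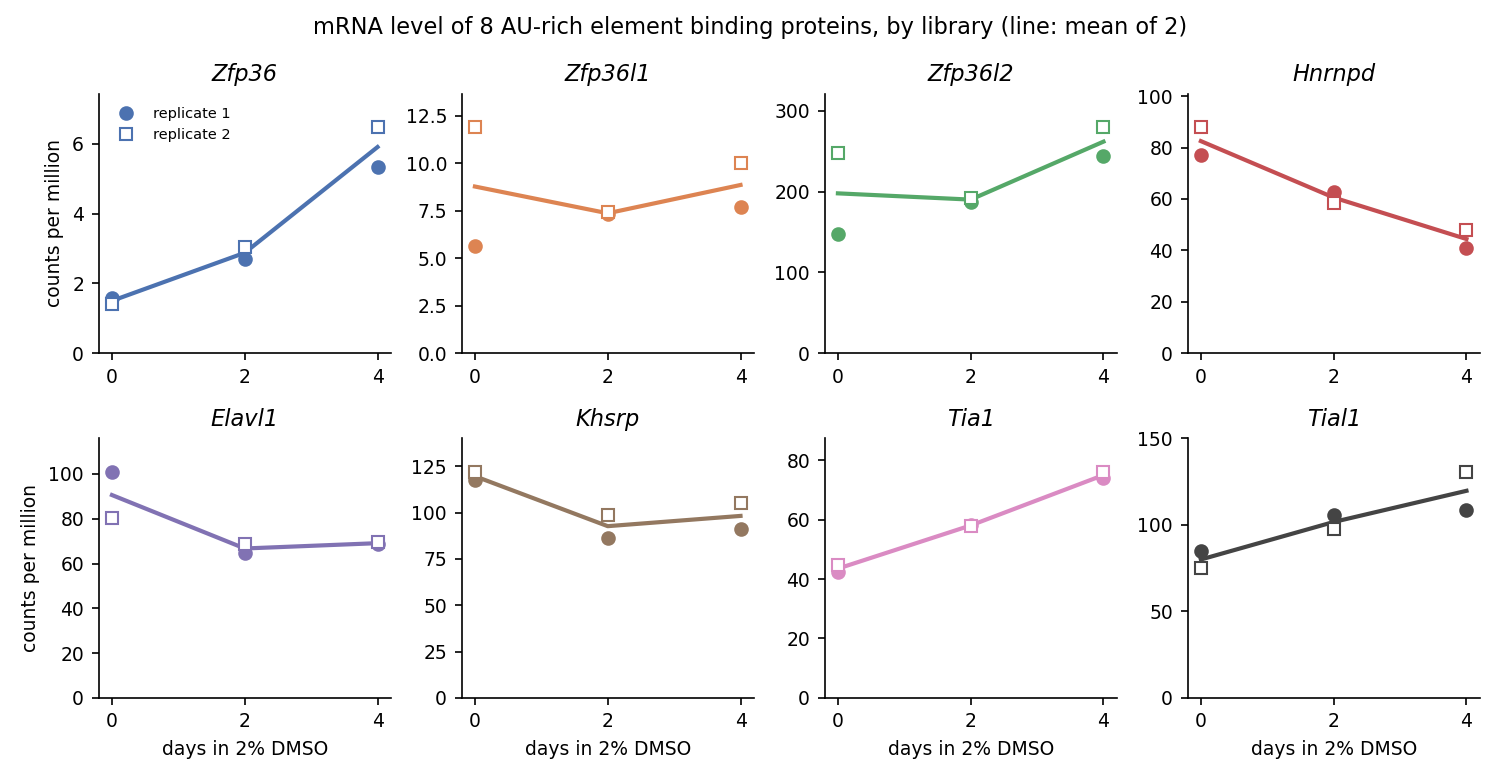
CPM (TMM-scaled, linear axis from 0) of the 8 mRNAs against days in DMSO, with circles for replicate 1, squares for replicate 2 and a line through the mean of each day. Zfp36, Tia1 and Tial1 climb and Hnrnpd descends with no overlap between days, while the 2 day 0 libraries of Zfp36l1 and Zfp36l2 lie far apart.

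Zfp36 lies on chromosome 7 (28376784 to 28379228 in GRCm38, transcript NM_011756). Its level was 1.59 and 1.41 CPM in the day 0 libraries, 2.71 and 3.05 CPM at day 2, and 5.35 and 6.47 CPM at day 4. The days did not overlap, and each later day was above the one before. These levels rest on few reads, 65 and 70 counts at day 0 (exact 95% Poisson intervals of 50.2 to 82.8 and 54.6 to 88.4, counting error only) and 193 and 293 at day 4. The change was a log2 fold change of 0.94 ± 0.21 (SE, adjusted p = 0.00211) to day 2 and 1.04 ± 0.19 (adjusted p = 0.00245) from day 2 to day 4. Over 4 days Zfp36 rose 3.95-fold (log2 1.98 ± 0.20, adjusted p = 5.21e-06), the largest change of the 8 in this fit. The second step missed the threshold without replicate 1 of day 2 (adjusted p = 0.0556).

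Zfp36l1 lies on chromosome 12 (80107760 to 80113013, NM_007564). Its day 0 libraries gave 5.66 and 11.9 CPM, its day 2 libraries 7.31 and 7.43 CPM and its day 4 libraries 7.70 and 10.0 CPM. The day 0 libraries enclosed every later value. The log2 fold change over 4 days was 0.0090 with an SE of 0.27 (adjusted p = 0.978), and 2 SE on either side ran from -0.54 to 0.56. At day 0 replicate 2 was higher than replicate 1 by 1.06 on the log2 scale, a wider gap than in 98.1% of genes. Without that replicate the change over 4 days was 0.64 (adjusted p = 0.00729), and without replicate 1 of day 0 it was -0.43 (adjusted p = 0.0321), so the direction turned on which day 0 library was kept.

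Zfp36l2 lies on chromosome 17 (84183924 to 84187947, NM_001001806), and per kilobase it was the most abundant of the 3 paralogs in every library. Its level was 148 and 248 CPM at day 0, 188 and 193 CPM at day 2, and 244 and 279 CPM at day 4. The day 4 libraries were both above the day 2 libraries, and the higher day 0 library lay between the day 4 values. The log2 fold change was -0.058 ± 0.19 (adjusted p = 0.807) to day 2, 0.46 ± 0.19 (adjusted p = 0.0938) from day 2 to day 4 and 0.40 ± 0.19 (adjusted p = 0.0815) over 4 days. Zfp36l2 also differed between the day 0 replicates, by 0.74 on the log2 scale with replicate 2 the higher, more than 94.6% of genes. Without that library the change over 4 days was 0.81 (adjusted p = 1.66e-05) and the change to day 2 was 0.35 (adjusted p = 0.0139). Without the other day 0 library the change over 4 days was 0.073 (adjusted p = 0.569) and the change to day 2 was -0.38 (adjusted p = 0.00685).

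**Figure D2:**
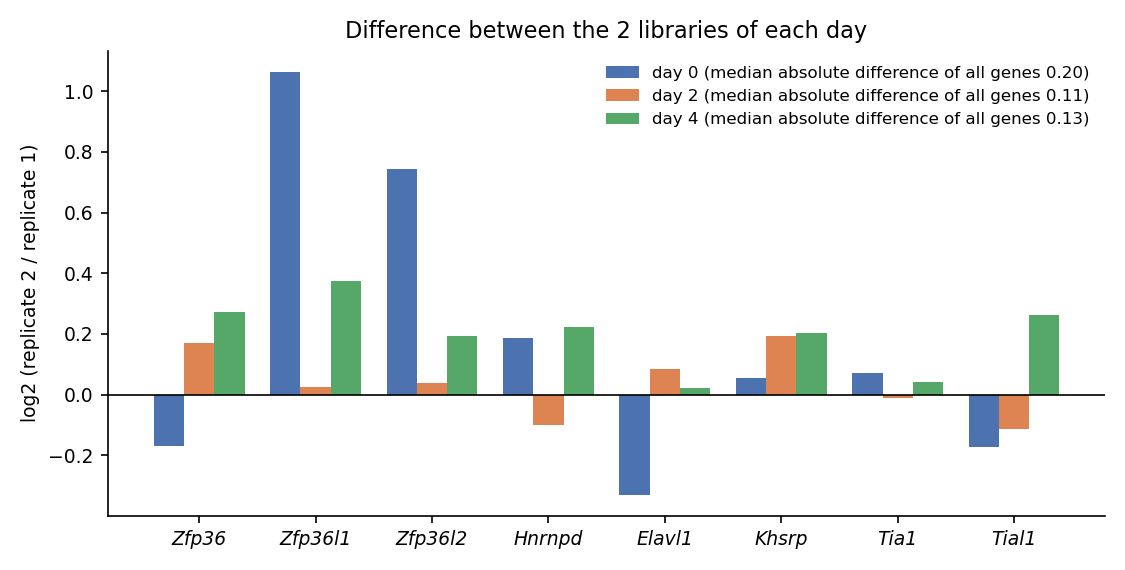
Bars give the log2 ratio of replicate 2 to replicate 1 for each mRNA at each day, with the median absolute ratio of all genes in the legend. Zfp36l1 (1.06) and Zfp36l2 (0.74) at day 0 exceed every other bar.

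Zfp36 genes belong to the immediate early class, and other genes of that class were set beside this gap. At day 0 the log2 ratio of replicate 2 to replicate 1 was -0.16 for Fos, 0.14 for Jun, 0.34 for Junb, -0.15 for Egr1, -0.14 for Ier2, -0.31 for Dusp1 and 0.43 for Myc. Of these 7 genes 3 were higher and 4 lower in replicate 2, and none reached the gap of Zfp36l1 or Zfp36l2. These genes were picked after the gap was seen, and its cause was not tested. Fos (25 and 27 counts) and Jun (17 and 23 counts) rest on few reads at day 0.

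Per kilobase of transcript, Zfp36l2 made up 91.9% to 93.7% of the summed level of the 3 Zfp36 paralogs in each library. The share of Zfp36 was 2.02% and 1.07% at day 0, 2.69% and 2.94% at day 2, and 4.05% and 4.26% at day 4. It did not overlap between days. The share of Zfp36l1 was 4.25% and 5.31% at day 0, 4.29% and 4.23% at day 2, and 3.45% and 3.89% at day 4. The per-length level of Zfp36l2 was 46.4 and 87.8 times that of Zfp36 at day 0, 34.6 and 31.6 times at day 2, and 22.8 and 21.6 times at day 4. With the full reference length of Zfp36 in place of its exons inside the RefSeq gene span, its mean share was 0.98%, 1.80% and 2.67% at the 3 days. The shares are a description and were not tested.

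Hnrnpd lies on chromosome 5 (99955935 to 99979130, NM_001077265). Its level was 77.1 and 87.8 CPM at day 0, 62.7 and 58.4 CPM at day 2, and 41.0 and 47.8 CPM at day 4. No library overlapped with one of another day. Hnrnpd fell by 0.45 ± 0.12 on the log2 scale in each step (adjusted p = 0.00639 to day 2 and 0.0161 from day 2 to day 4), and by 0.89 ± 0.12 over 4 days (adjusted p = 4.29e-05), to 0.54 of its day 0 level. The difference between its 2 steps was 0.00044 ± 0.21 (adjusted p = 0.999). Scaled to total counts in place of TMM, the first step gave -0.25 (adjusted p = 0.0756), a setting under which the median of all genes was 0.21, and it missed the threshold without replicate 2 of day 2 too (adjusted p = 0.0777). The second step missed it without either day 2 library or without replicate 1 of day 4 (adjusted p of 0.0711 to 0.160).

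The 4 Hnrnpd transcripts in the tables differ by 2 cassette exons that set the AUF1 isoforms, and their changes over 4 days were alike, from -0.89 to -0.90. The 2 transcripts compared for the 147-base exon also differ by a few bases at their ends in the reference. Those compared for the 57-base exon have last exons of 736 and 332 bases, so reads outside that exon can enter its share. Reads counted to the transcript with the 147-base exon (chr5:99963731-99963877) but not to the one without it were 6.82% and 5.35% of its counts at day 0, 8.18% and 7.47% at day 2, and 6.25% and 6.66% at day 4. Days 0 and 4 overlapped, and both day 2 libraries lay above every other library, a difference that was not tested. For the 57-base exon (chr5:99976534-99976590) the share was 0.145% to 0.505%, from 4 to 12 reads per library, too few to compare days. The same number of reads separated both pairs of transcripts that differ by this exon. Therefore the 3′ UTR of 5429 bases that the reference gives NM_001077265 had no visible part in its counts, and NM_001077266, with over 99% of the counts and a model of 1670 bases, set the length used for its level per kilobase.

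Khsrp lies on chromosome 17 (57021049 to 57031507, NM_010613). Its level was 117 and 122 CPM at day 0, 86.4 and 98.9 CPM at day 2, and 91.2 and 105 CPM at day 4. Both later days lay below day 0 and overlapped with each other. Khsrp fell by 0.37 ± 0.11 on the log2 scale to day 2 (adjusted p = 0.0157) and by 0.28 ± 0.11 over 4 days (adjusted p = 0.0430). From day 2 to day 4 the change was 0.084 ± 0.11 (adjusted p = 0.613). The 2 calls did not hold with total counts, which gave -0.17 in both (adjusted p of 0.211 and 0.198). Under that setting the median of all genes was 0.21 to day 2 and 0.098 over 4 days. Less that median, Khsrp was -0.38 and -0.27. The call to day 2 was also lost without replicate 1 of day 2 (adjusted p = 0.171), and the call over 4 days without each of 4 libraries in turn, with adjusted p of 0.0516 to 0.287, and with days 0 and 4 fitted alone (adjusted p = 0.0674). Without replicate 1 of day 4 the change over 4 days was -0.19.

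Elavl1 lies on chromosome 8 (4284781 to 4325140, NM_010485), and its protein shields AU-rich mRNAs from decay. Its level was 101 and 80.3 CPM at day 0, 64.8 and 68.7 CPM at day 2, and 68.6 and 69.6 CPM at day 4. As with Khsrp, both later days were below day 0 and overlapped with each other. Elavl1 fell by 0.44 ± 0.12 on the log2 scale to day 2 (adjusted p = 0.00811), and the change from day 2 to day 4 was 0.050 ± 0.12 (adjusted p = 0.779). Over 4 days it fell by 0.39 ± 0.12 (adjusted p = 0.0127). With total counts the median of all genes was 0.21 to day 2 and 0.098 over 4 days. The change of Elavl1 under that setting was -0.24 to day 2 (adjusted p = 0.109) and -0.28 over 4 days (adjusted p = 0.0664). Without replicate 1 of day 0 it was -0.27 to day 2 (adjusted p = 0.0282) and -0.22 over 4 days (adjusted p = 0.0569). The call to day 2 was lost without replicate 1 of day 2 (adjusted p = 0.0819), and the call over 4 days without replicate 1 of day 0 or either day 4 library (adjusted p of 0.0549 to 0.0652).

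Tia1 lies on chromosome 6 (86404203 to 86433405, NM_011585). Its level was 42.5 and 44.6 CPM at day 0, 58.3 and 57.9 CPM at day 2, and 74.0 and 76.1 CPM at day 4. The replicates of each day lay close together and the days did not overlap. Tia1 rose by a log2 fold change of 0.42 ± 0.10 to day 2 (adjusted p = 0.00375), by 0.37 ± 0.10 from day 2 to day 4 (adjusted p = 0.0170) and by 0.79 ± 0.10 over 4 days (adjusted p = 3.09e-05), a 1.72-fold rise. The second step lost its call with total counts (adjusted p = 0.0521) and without any 1 of the day 2 or day 4 libraries (adjusted p of 0.0732 to 0.144). With total counts the second step gave 0.29, where the median of all genes was -0.088. All 3 Tia1 transcripts in the tables gave a log2 change of 0.78 to 0.79 over 4 days.

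Tial1, the closest paralog of Tia1, lies on chromosome 7 (128439772 to 128461726, NM_009383). Its level was 84.7 and 75.2 CPM at day 0, 106 and 97.6 CPM at day 2, and 109 and 131 CPM at day 4. The days did not overlap, although the lower day 4 library was close to the higher day 2 library. Tial1 rose by 0.35 ± 0.12 on the log2 scale to day 2 (adjusted p = 0.0265) and by 0.58 ± 0.12 over 4 days (adjusted p = 0.00114), a 1.50-fold rise. From day 2 to day 4 the change was 0.24 ± 0.12 (adjusted p = 0.158). The call to day 2 was lost without replicate 2 of day 0 or either day 2 library (adjusted p of 0.0695 to 0.176), and total counts gave 0.54 in that step. The median of all genes to day 2 was 0.21 with total counts. The ratio of Tia1 to Tial1 per kilobase was 0.72 and 0.85 at day 0, 0.79 and 0.85 at day 2, and 0.97 and 0.84 at day 4, with overlap between days.

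**Figure D3:**
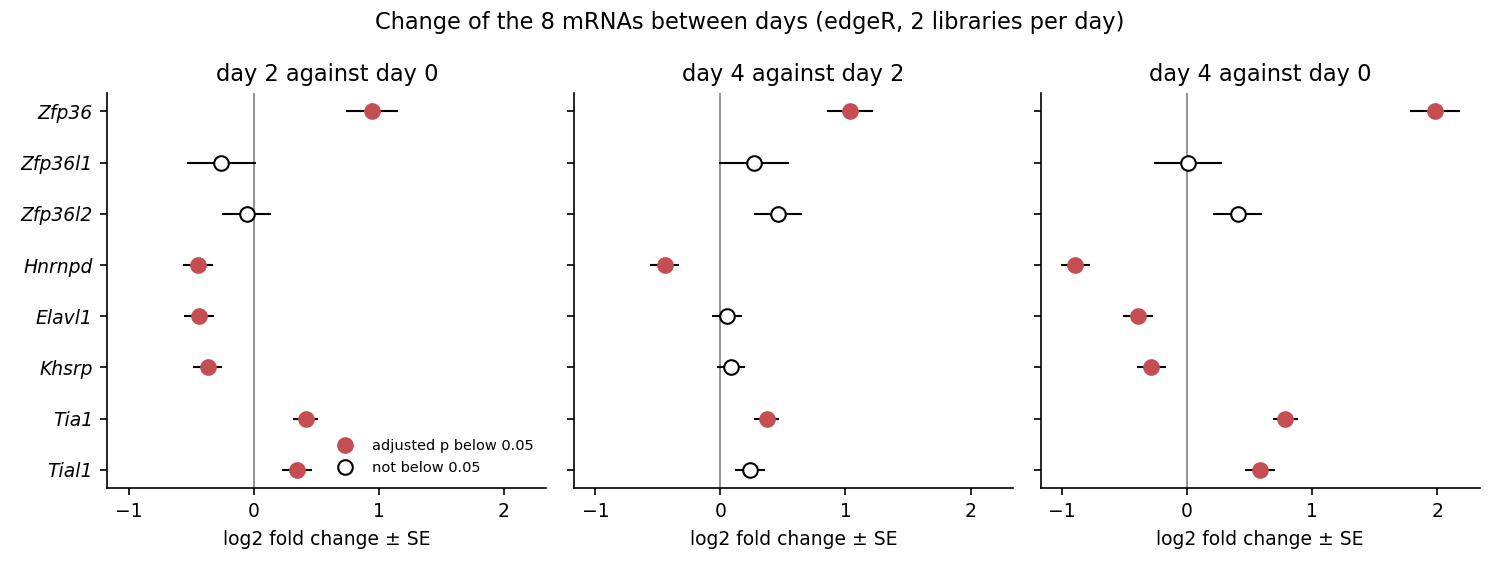
Points give the log2 fold change of each mRNA in each comparison with bars of 1 SE, filled where the adjusted p from edgeR was below 0.05. Zfp36 stands at 0.94, 1.04 and 1.98, and the 3 mRNAs that fell to day 2 stand between -0.45 and -0.37.

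Zfp36, Hnrnpd and Tia1 passed the test in the same direction in both steps, Tial1 passed it in the first step alone, and Elavl1 and Khsrp had their lower level by day 2. A test of the second step minus the first called 0 of the 8 at an adjusted p below 0.05, whereas 30.0% of all genes were called. At an unadjusted p below 0.05 edgeR gave 2 of the 8, Elavl1 (0.49 ± 0.21, adjusted p = 0.101) and Khsrp (0.45 ± 0.20, adjusted p = 0.111), and DESeq2 gave the same count and the same names. Without replicate 2 of day 0 Elavl1 was called, and without replicate 1 of day 0 Khsrp, Zfp36l1 and Zfp36l2 were.

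Set side by side per kilobase, levels spanned a wide range. At day 0 the order was Zfp36l2 (56.0 ± 20.0 CPM per kilobase, SD, n = 2), Hnrnpd (49.4 ± 4.5), Khsrp (30.1 ± 0.81), Tial1 (18.0 ± 1.5), Elavl1 (16.6 ± 2.7), Tia1 (14.01 ± 0.48), Zfp36l1 (2.94 ± 1.5) and Zfp36 (0.85 ± 0.073). The libraries of Zfp36l2 and Hnrnpd overlapped, as did those of Tial1 and Elavl1. At day 4 the order was Zfp36l2 (74.2 ± 7.1), Tial1 (26.9 ± 3.5), Hnrnpd (26.6 ± 2.9), Khsrp (24.7 ± 2.5), Tia1 (24.2 ± 0.48), Elavl1 (12.6 ± 0.13), Zfp36 (3.35 ± 0.45) and Zfp36l1 (2.97 ± 0.55). The 4 mRNAs from Tial1 to Tia1 overlapped with their neighbours, and so did Zfp36 and Zfp36l1. The lengths are uncertain, and the order depends on them. With the longest reference model Hnrnpd and Tia1 would be at 12.1 and 9.73 CPM per kilobase at day 0, and at 6.52 and 16.8 at day 4. The other members, Elavl1 with its long 3′ UTR among them, have 1 transcript each, so counts could not check their lengths. The full reference length of Zfp36 would give 2.12 at day 4, which would put it below Zfp36l1.

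**Figure D4:**
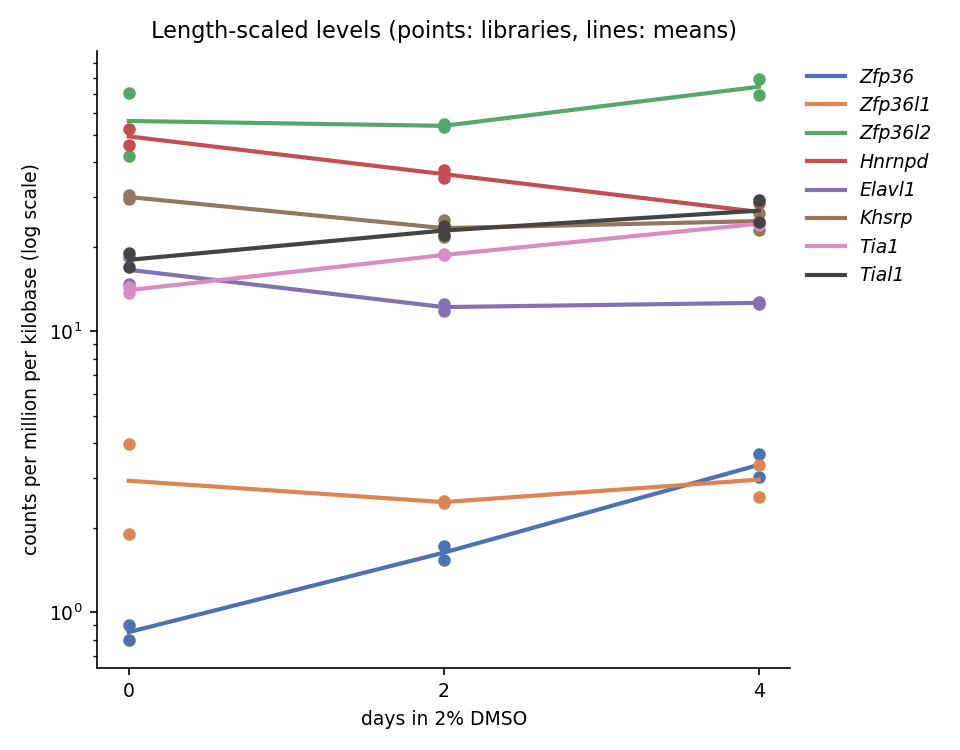
CPM per kilobase on a log axis against days in DMSO, with a point per library and a line through each mean. Zfp36l2 is on top at 56.0, 53.9 and 74.2, and with the lengths used here Zfp36 climbs from 0.85 to 3.35, beside Zfp36l1 at 2.97.

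Ratios of 2 mRNAs within a library do not depend on scaling between libraries. Their size depends on the transcript lengths used, which are uncertain, while their relative change between days does not. With the longest reference model Hnrnpd would be at 12.1 CPM per kilobase at day 0, in place of 49.4. Hnrnpd per kilobase was 51.2 and 65.8 times Zfp36 at day 0, 24.5 and 20.2 times at day 2, and 8.10 and 7.81 times at day 4. The ratio of Tia1 to Hnrnpd was 0.30 and 0.27 at day 0, 0.50 and 0.53 at day 2, and 0.97 and 0.86 at day 4. Neither ratio overlapped between days. Elavl1 to Hnrnpd was 0.40 and 0.28 at day 0, 0.32 and 0.36 at day 2, and 0.51 and 0.44 at day 4, so that day 0 and day 2 overlapped.

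The genes most like each member were found over 10454 genes and 6 libraries, as the smallest root mean square difference of centred log2 CPM, here given in brackets. For Zfp36 these were Asb1 (0.0338), Atat1 (0.0505) and Cds2 (0.0648), and 202 genes lay within 0.25. For Zfp36l1 they were Mtln (0.0840), Ythdc1 (0.108) and Sh3glb2 (0.117), with 213 genes within 0.25, and for Zfp36l2 Gigyf1 (0.0537) and Relch (0.0628), with 729. For Hnrnpd they were Ubr7 (0.0489), Cep152 (0.0540) and Cebpa (0.0572), with 1720 genes within 0.25. Elavl1 was nearest to Acot7 (0.0278), Polr3a (0.0286) and Tmem223 (0.0293), with 2457 genes, and Khsrp to Mpc1 (0.0350), Vangl2 (0.0383) and Gnb2 (0.0438), with 2727. Tia1 was nearest to Chd6 (0.0316), Zbtb9 (0.0331) and Gpatch8 (0.0344), with 2600 genes, and Tial1 to Atp11b (0.0350), BC005537 (0.0494) and Slc37a1 (0.0542), with 2844. Zfp36 and Zfp36l1 thus had the fewest genes within 0.25, and Tia1, Tial1 and Khsrp the most. The measure runs over single libraries, so gaps between replicates, such as 1.06 for Zfp36l1 at day 0, enter it beside the changes between days.

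The mRNAs of the proteins that act beside the 8 were taken from 5 lists, 74 genes in all, of which 72 were tested. For day 4 against day 0, 21 of the 72 were called higher and 33 lower (median -0.22), beside 35.5% and 36.4% of all genes. For day 2 against day 0 the shares of all genes were 31.0% and 31.5%, beside 17 and 32 of the 72 (median -0.20). For day 4 against day 2 those shares were 14% and 16.2%, beside 9 and 13 of the 72 (median -0.058). The last count rested on single libraries and was 2 without replicate 1 of day 2, 6 without replicate 2 of day 4, 11 without replicate 2 of day 2, 13 without replicate 1 of day 4 and 34 without either day 0 library.

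Among other AU-rich element binding and related RNA-binding proteins, 8 of 20 tested were called higher and 9 lower over 4 days (median -0.25), beside 35.5% and 36.4% of all genes. Nucleolin (Ncl) had 924 and 1492 CPM at day 0 and 358 and 316 CPM at day 4, a log2 change of -1.84 ± 0.20 (adjusted p = 8.71e-06). Hnrnpab, a relative of Hnrnpd, had 420 and 487 CPM at day 0 and 157 and 132 CPM at day 4, and fell by 1.65 ± 0.13 (adjusted p = 8.86e-07). Zc3h12a, an endonuclease of cytokine mRNAs, rose from 2.62 and 2.26 CPM to 6.35 and 6.08 CPM (log2 1.35 ± 0.18, adjusted p = 4.15e-05). Auh, an AU-binding enoyl-CoA hydratase, rose by 0.98 ± 0.16 (adjusted p = 2.54e-04).

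The CCR4-NOT complex, which Zfp36 proteins recruit, and other deadenylases had 5 of 13 higher and 2 lower over 4 days (median -0.093). Across all genes 35.5% were called higher and 36.4% lower. Pan3, the adaptor of the Pan2 deadenylase, rose by 1.01 ± 0.11 on the log2 scale (adjusted p = 6.99e-06) and Cnot7, a catalytic subunit, by 0.68 ± 0.12 (adjusted p = 3.78e-04). Cnot9 fell by 0.99 ± 0.10 (adjusted p = 5.85e-06) and Cnot11 by 0.37 ± 0.14 (adjusted p = 0.0378).

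In the decapping and 5′ decay list 3 of 9 were higher and 2 lower over 4 days (median -0.033), where 35.5% and 36.4% of all genes were. Dcp1a, a decapping cofactor, rose by 0.61 ± 0.13 (adjusted p = 0.00124) and the exonuclease Xrn1 by 0.60 ± 0.11 (adjusted p = 6.23e-04). Lsm1 fell by 0.89 ± 0.12 (adjusted p = 5.66e-05) and Dcp2, the decapping enzyme, by 0.68 ± 0.11 (adjusted p = 2.04e-04).

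The exosome and SKI complex, the 3′ to 5′ decay machinery that Khsrp and Zfp36 can recruit, had 12 of 13 called lower and 1 higher over 4 days (median -0.87, where the median over all genes was -0.017 and 36.4% were called lower). The counts over 4 days were the same, 12 and 1, with DESeq2, other scalings, a replicate block and each library left out in turn. To day 2, 11 were lower and 1 higher, where 31.5% and 31.0% of all genes were. In the second step 6 were lower and 1 higher, where 16.2% and 14% of all genes were. From day 2 to day 4 the count lower was 1 without replicate 1 of day 2 or replicate 2 of day 4, 4 without replicate 2 of day 2 or replicate 1 of day 4, and 9 without either day 0 library or with those 2 days fitted alone. Exosc2, a cap subunit, had 94.3 and 95.7 CPM at day 0, 46.0 and 47.2 CPM at day 2, and 23.1 and 22.4 CPM at day 4, and fell by 2.06 ± 0.10 over 4 days (adjusted p = 4.65e-08). Exosc3, another cap subunit, fell by 1.85 ± 0.13 (adjusted p = 3.19e-07). The member that rose was Skiv2l, the SKI helicase of the cytoplasm, by 0.76 ± 0.10 (adjusted p = 5.28e-05).

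Kinases, phosphatases and 14-3-3 proteins that control Zfp36 had 4 of 17 higher and 8 lower over 4 days (median -0.21), beside 35.5% and 36.4% of all genes. Dusp1, a phosphatase of p38, had 9.95 and 8.04 CPM at day 0, 26.6 and 26.8 CPM at day 2, and 48.8 and 59.3 CPM at day 4, and rose by 2.59 ± 0.15 over 4 days (adjusted p = 1.17e-07). Map2k6, a kinase of p38, had 1.05 and 1.07 CPM at day 0, 5.17 and 3.52 CPM at day 2, and 1.88 and 2.94 CPM at day 4, a log2 change of 1.19 ± 0.29 over 4 days (adjusted p = 0.00308). Ywhaz, a 14-3-3 protein, fell by 1.19 ± 0.11 (adjusted p = 2.74e-06).

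**Figure D5:**
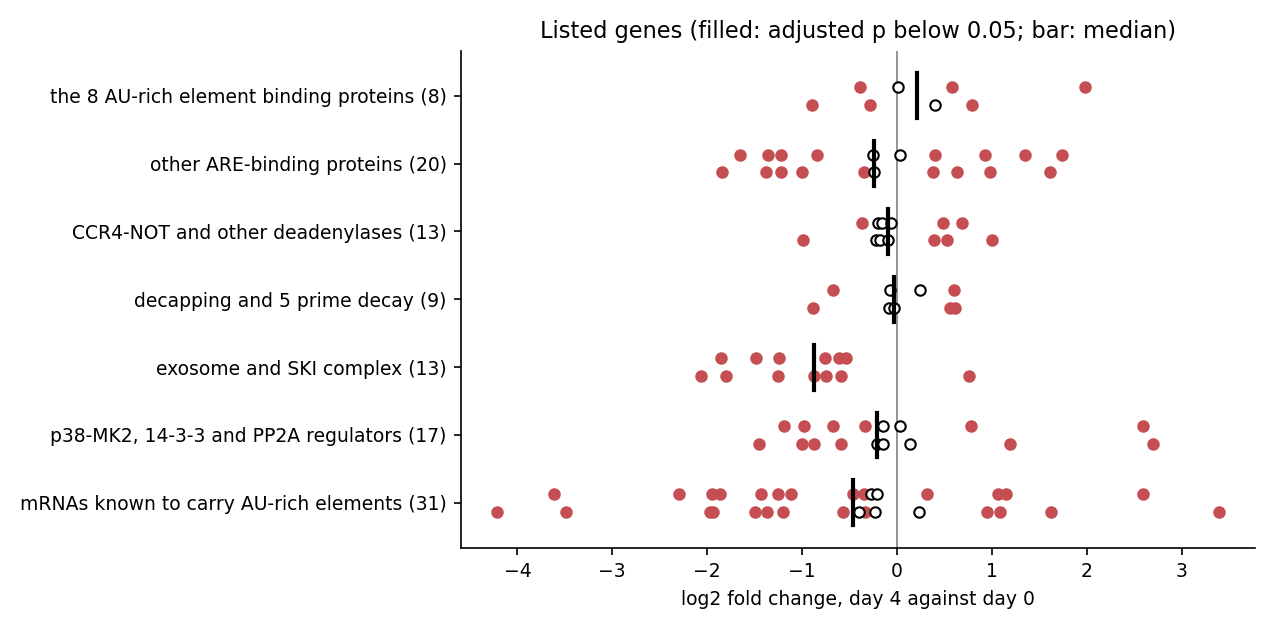
Log2 fold changes for day 4 against day 0 of the 8 mRNAs and of the 6 lists (number tested in brackets), filled where the adjusted p was below 0.05, with a bar at the median. The exosome and SKI list lies left of 0 but for Skiv2l, and the other lists spread to both sides.

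mRNAs known to carry AU-rich elements, the class these proteins act on, were taken from a list of 43, of which 31 were tested. The untested 12, among them Il2, Il6, Ifng and Ptgs2, had 0 to 13 counts over the 6 libraries. Over 4 days 8 of 31 were called higher and 18 lower (median -0.47), where 35.5% of all genes were higher and 36.4% lower. To day 2 the counts were also 8 and 18 (median -0.55), where 31.0% and 31.5% of all genes were called. From day 2 to day 4 they were 7 and 4 (median 0.016), where 14% and 16.2% of all genes were called. Socs3, a brake on cytokine signalling, had 1.05 and 1.35 CPM at day 0 and 10.9 and 14.5 CPM at day 4 (log2 3.39 ± 0.22, adjusted p = 2.39e-07), and Dusp1 stands in this list too. Slc2a1, the glucose transporter, had 103 and 104 CPM at day 0 and 8.37 and 10.1 CPM at day 4 (log2 -3.49 ± 0.15, adjusted p = 1.66e-08). Cdkn1a, the p21 inhibitor of the cell cycle, fell by 1.93 ± 0.22 (adjusted p = 1.13e-05). The nonamer was found in the 3′ UTR of 14 of the 31.

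Across the transcriptome, 42.1% of the 772 genes with the nonamer were called higher over 4 days and 29.4% lower (median log2 fold change 0.16). Without it, 35.2% of 10609 genes were higher and 37.8% lower (median -0.036). The 3′ UTRs with the nonamer were longer, with a median of 2109 against 875 bases. Among genes whose 3′ UTR was 1120 to 3612 bases long, 42.7% of 386 with the nonamer were higher and 28.2% lower, and of 3733 without it 40.8% were higher and 31.7% lower. Within this span of lengths the medians were 0.15 and 0.12. These are descriptions over genes of the same 6 libraries and have no test.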

How the data were processed

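Strand-specific poly(A) libraries were made from total RNA of MEL cells. The authors trimmed adapters with cutadapt and aligned reads to mm10 (GRCm38) with TopHat, HTSeq is named in the submitters' processing notes, and raw read counts per RefSeq transcript were deposited without normalization or pooling. The annotation release and the counting settings, use of strand included, are not given in the sources used here. Reads listed as ambiguous or not unique were 0 in every file, and reads on no feature were left out. Transcripts of 1 gene can share reads. Symbols and gene spans came from a RefSeq table of GRCm38.p6, and exons, 3′ UTRs and sequences from GENCODE vM21. Groups followed the labels.

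Counts were tested with edgeR 4.0.16 under R 4.3.3, using TMM factors, filterByExpr (18351 transcripts kept) and 1 quasi-likelihood fit over all 6 libraries. A call was an adjusted p below 0.05, and SE is the log2 fold change over the square root of F. p-values measure the spread between 2 cultures per day. CPM values are TMM-scaled. The length used was that of the shortest model among transcripts of a gene with at least 95% of the chosen transcript's counts in every library, inside the RefSeq gene span, a rule set after seeing the counts. The code was tested on simulated data. DESeq2 1.42.0, RLE factors, total counts, scaling without globins, no filter, only the days compared, a replicate block, a size limit, another choice of transcript and leaving out each library were tried.

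All 8 members are named. A few genes that the naming rules or marker lists hold are not reported here. From each list up to 2 called genes with the largest rise and 2 with the largest fall over 4 days are named (average log2 CPM at least 1), and Pf4 and early response genes beside them, chosen after their values were seen. The members and lists were chosen with earlier results of these data known. Same-numbered replicates deviated together with correlations of 0.032 to 0.079 over 18351 transcripts.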

Additional observations from a re-analysis of the deposited data

How the results depend on the processing

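Rises of Zfp36 and Tia1 to day 2 and over 4 days, of Tial1 over 4 days, and the fall of Hnrnpd over 4 days passed the threshold under every alternative but the size limit, which Zfp36 alone passed, over 4 days and from day 2 to day 4. Outside left-out libraries, 185 of 216 values of the 8 mRNAs kept direction and call, and with a library left out 111 of 144. Requiring a log2 change of at least 1 left 0, 1 and 1 of the 8 to day 2, from day 2 to day 4 and over 4 days, 14, 2 and 23 partner genes, and 14 and 3 AU-rich mRNAs in the 2 steps. Total counts left 3 of the 8 to day 2, a setting under which the median of all genes was 0.21 in place of 0.0093. Fitting the 2 days compared alone called 34 partner genes and 334 nonamer genes from day 2 to day 4. Leaving out 1 library gave 3 to 8, 0 to 4 and 4 to 7 of the 8 in the 3 comparisons, 2 to 34 partner genes, 4 to 14 AU-rich mRNAs and 51 to 332 nonamer genes (219 in the main fit) from day 2 to day 4, and 0 to 3 of the 8 for the difference between steps. The share of all genes called under each alternative is not given beside these counts, which can move with the calls over all genes. With full reference lengths the Zfp36 share was 0.98% at day 0, 1.80% at day 2 and 2.67% at day 4.

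Signs turned for values that did not pass. Zfp36l1 to day 2 was 0.37 without replicate 2 of day 0 and -0.69 without replicate 1. Zfp36l1 over 4 days was -0.0058 with DESeq2, -0.011 with RLE factors, -0.43 and 0.64 without replicate 1 or 2 of day 0 and -0.20 without replicate 2 of day 4. Zfp36l2 to day 2 was 0.14 with total counts and 0.35 or -0.38 without replicate 2 or 1 of day 0. From day 2 to day 4, total counts gave Elavl1 -0.033 and Khsrp -0.0012, and Khsrp was -0.025 to 0.18 with a library left out. With total counts the median of all genes was 0.21 to day 2, -0.088 from day 2 to day 4 and 0.098 over 4 days. Less that median, Zfp36l2 to day 2 was -0.063, and from day 2 to day 4 Elavl1 was 0.055 and Khsrp 0.087. The cause of the turns was not tested. Zfp36l2 passed from day 2 to day 4 with DESeq2 (0.47, adjusted p = 0.0443), with no filter (0.46, adjusted p = 0.00247) and with only those days (0.46, adjusted p = 0.00113), and over 4 days with total counts (0.52, adjusted p = 0.0237) and no filter (0.41, adjusted p = 0.00308).

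Replicate numbers were shared across days, but the libraries did not deviate together, so they were not treated as pairs. With the number as a replicate block 6, 3 and 7 of the 8 were called, the added one being Zfp36l2 over 4 days (0.43, adjusted p = 0.0363). Low counts limit Zfp36, and 2 libraries per day limit the small changes of Elavl1 and Khsrp. Alternatives for the difference between steps, the family share, the exosome list and the nonamer genes were chosen after seeing the data.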
